A study of Rattus norvegicus with 16 samples.

Results

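Basal epithelial cells were followed in the rat ventral prostate through 10 genes: Krt5, Krt14, Krt15, Krt17, Tp63, Ngfr, Col17a1, Lamb3, Dsg3 and Jag2. The genes were taken by symbol, and all 10 were found among the 19709 gene names that the deposited tables of both ages share. Messenger RNA had been sequenced from whole ventral prostates, frozen after removal, of rat offspring whose strain is not given in the sources used here. CTR offspring came from dams on a normal diet with 17% protein, and GLLP offspring from dams given a diet with 6% protein during gestation and lactation. At postnatal day (PND) 21 there were 4 CTR libraries (replicates 1 to 4) and 3 GLLP libraries (replicates 2 to 4), and at PND540 there were 5 CTR and 4 GLLP libraries. Litters are not named in the labels, and p-values therefore reflect only how far these individual samples differed. The comparisons ask whether the maternal diet altered these genes at each age, how they differed between the ages, and whether the diet difference depended on age.

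Basal cells form the outer layer of the prostate epithelium, between the secretory luminal cells and the basement membrane. They carry the type II keratin Krt5 and its type I partners Krt14, Krt15 and Krt17, and the transcription factor p63 (Tp63) that maintains stratified and basal epithelia. Hemidesmosomes tie them to the basement membrane through collagen XVII (Col17a1) and laminin-332, whose beta chain is Lamb3, and desmosomes that contain desmoglein 3 (Dsg3) tie such cells to each other. Ngfr is the p75 neurotrophin receptor, and Jag2 is a ligand that activates Notch receptors on neighbouring cells.

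The libraries held between 28748604 and 39161666 counts. Their values are given as CPM, counts brought to a common library total, after TMM scaling, which keeps a few very abundant genes from setting that total. CPM is not corrected for gene length, so levels are compared between libraries and never between genes. In bulk tissue, fewer cells of a type and less RNA per cell cannot be told apart. Keratin genes have close relatives in the genome, and how reads shared with them were counted is not given in the sources used here, so keratin values carry that uncertainty. CTR replicate 5 at PND540 stood apart from the rest of its age: its median correlation with them was 0.851, and 70.7% of the 14767 genes tested were higher or lower than in all the other 8 libraries. CTR replicate 1 at PND21 had 0 counts for 11 of the 12 mitochondrial genes that were counted in the other 6 libraries of that age. Epithelium was present in every library: the 8 luminal and pan-epithelial markers, Krt8 and Krt18 among them, summed to between 2520 and 6670 CPM.

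Promoter sequences were at hand in RefSeq (build GRCr8) for 6 of the 10 genes: Krt5, Tp63, Col17a1, Lamb3, Dsg3 and Jag2. The 250 bases before the start are shown for Krt5, Col17a1 and Lamb3, a keratin and both basement membrane anchors. Their levels moved together at PND21 (Pearson r of 0.89 for Krt5 with Col17a1, 0.95 for Krt5 with Lamb3 and 0.94 for Col17a1 with Lamb3, over 7 libraries). Jag2, whose windows are not shown, moved with them as well (r of 0.9 with Krt5, 0.89 with Col17a1 and 0.88 with Lamb3). The windows shown are at chr7:134730570-134730819 on the minus strand (Krt5), chr1:256518858-256519107 on the minus strand (Col17a1) and chr13:107362303-107362552 on the plus strand (Lamb3). Each runs 5′ to 3′ toward the start, and capitals mark matches to the motifs searched.
Krt5: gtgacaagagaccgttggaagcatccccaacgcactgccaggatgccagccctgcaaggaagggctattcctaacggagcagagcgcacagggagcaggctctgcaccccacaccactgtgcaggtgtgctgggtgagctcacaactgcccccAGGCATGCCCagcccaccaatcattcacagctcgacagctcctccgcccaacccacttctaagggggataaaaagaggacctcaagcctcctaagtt
Col17a1: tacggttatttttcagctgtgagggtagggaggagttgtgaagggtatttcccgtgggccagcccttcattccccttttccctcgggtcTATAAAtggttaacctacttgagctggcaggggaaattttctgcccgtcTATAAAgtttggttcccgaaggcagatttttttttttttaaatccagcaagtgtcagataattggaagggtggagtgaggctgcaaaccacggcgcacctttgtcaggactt
Lamb3: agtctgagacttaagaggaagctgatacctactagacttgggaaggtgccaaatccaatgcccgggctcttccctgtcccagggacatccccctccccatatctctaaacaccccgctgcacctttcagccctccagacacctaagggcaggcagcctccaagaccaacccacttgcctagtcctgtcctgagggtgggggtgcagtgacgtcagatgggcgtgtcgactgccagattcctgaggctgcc
Both strands were searched for the TATA box TATAAA, the AP-1 site TGANTCA, the AP-2 site GCCNNNGGC and the half-site bound by the p53 family, to which p63 belongs. The Krt5 window held 1 p53 family half-site, starting 97 bases before the start, and 6.64% of 33469 rat promoter windows of the same length held one. The Col17a1 window held TATAAA at 161 and at 112 bases before the start, and 12.9% of all windows held it. The Lamb3 window held none of these letters. AP-1 letters stood in 6.34% and AP-2 letters in 12.6% of all windows. Of the Jag2 windows, not shown, 1 held AP-2 letters, starting 90 bases before the start. A match describes the letters only and was not tied to any value measured here.

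At PND21 the basal genes tested all had higher fitted levels in GLLP than in CTR glands, by 1.3-fold to 1.97-fold, but none passed the adjusted threshold of 0.05. Of the 10 genes, 9 had enough counts to be tested, and 0 of 9 were called, where 1.01% of all 14915 genes were called higher and 1.11% in either direction. Before adjustment 7 of 9 had p under 0.05, all higher in GLLP, beside 10.9% of all genes. All 9 differences were positive, as were 49.5% of those of all genes, and their median log2 difference was 0.74 against 0 over all genes tested.

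Among the keratins, Krt5 was at 39.2, 47.5, 48.8 and 31.9 CPM in CTR replicates 1 to 4 and at 47.4, 84.2 and 97.5 CPM in GLLP replicates 2 to 4. GLLP replicate 2 lay within the CTR range and the other two GLLP glands lay well above it. The fitted log2 difference was 0.87 (SE 0.24, edgeR adjusted p = 0.116). Krt14, which pairs with Krt5 in the filaments of basal cells, was likewise highest in GLLP replicates 3 and 4. It was at 15.9, 16.4, 21.5 and 15.4 CPM in the CTR glands and at 19.3, 34.4 and 36.8 CPM in the GLLP glands, with a log2 difference of 0.80 (SE 0.22, edgeR adjusted p = 0.112). Krt15, a type I keratin linked to basal progenitors in several epithelia, varied widely among the CTR glands alone. Its CTR values were 222, 666, 341 and 396 CPM and its GLLP values 419, 563 and 1052 CPM, and the log2 difference of 0.74 had an SE of 0.40 (edgeR adjusted p = 0.344). Krt17, a keratin induced in injured and activated epithelium, ranged from 7.76 to 17 CPM in CTR and from 11.6 to 22 CPM in GLLP, and its log2 difference was 0.45 (SE 0.28, edgeR adjusted p = 0.391). The groups overlapped for all 4 keratins.

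Tp63 was at 18.6, 18.8, 23.7 and 21 CPM in the CTR glands and at 28.8, 36.9 and 23.5 CPM in the GLLP glands. GLLP replicate 4, which had the highest Krt5, Krt14, Krt15 and Krt17, had the lowest Tp63 of its group and lay just under the top CTR gland. The log2 difference was 0.53 (SE 0.16, edgeR adjusted p = 0.138).

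Of the anchoring genes, Col17a1 was at 12.1, 17.1, 24.9 and 15.2 CPM in the CTR glands and at 21.3, 38.3 and 33.7 CPM in the GLLP glands (log2 difference 0.84, SE 0.26, edgeR adjusted p = 0.149). Lamb3 was at 12.2, 16.9, 18.9 and 12.7 CPM in the CTR glands and at 14.7, 24.3 and 25.6 CPM in the GLLP glands (log2 difference 0.50, SE 0.22, edgeR adjusted p = 0.258). For both genes GLLP replicate 2 fell inside the CTR range while GLLP replicates 3 and 4 lay above it. Dsg3 had between 0 and 8 counts per PND21 library and 0 to 11 per PND540 library, too few to be tested. It was at 0.0577, 0.17, 0.24 and 0.119 CPM in the CTR glands and at 0, 0.0466 and 0.173 CPM in the GLLP glands at PND21, and no difference was detectable at this depth.

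Ngfr and Jag2 were the pair whose PND21 groups did not overlap, 2 of 9 genes beside 9.49% of all genes. Ngfr was at 1.82, 2.88, 2.82 and 2.51 CPM in the CTR glands and at 4.02, 4.9 and 5.94 CPM in the GLLP glands. All 3 GLLP glands were above every CTR gland, and the difference was 1.97-fold (log2 0.98, SE 0.22, edgeR adjusted p = 0.0752). Jag2 was at 38.7, 43.6, 43.7 and 44.8 CPM in the CTR glands and at 46, 58.2 and 61.9 CPM in the GLLP glands. The lowest GLLP gland was only slightly above the highest CTR gland, and the difference was 1.3-fold (log2 0.37, SE 0.12, edgeR adjusted p = 0.145).

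**Figure D1:**
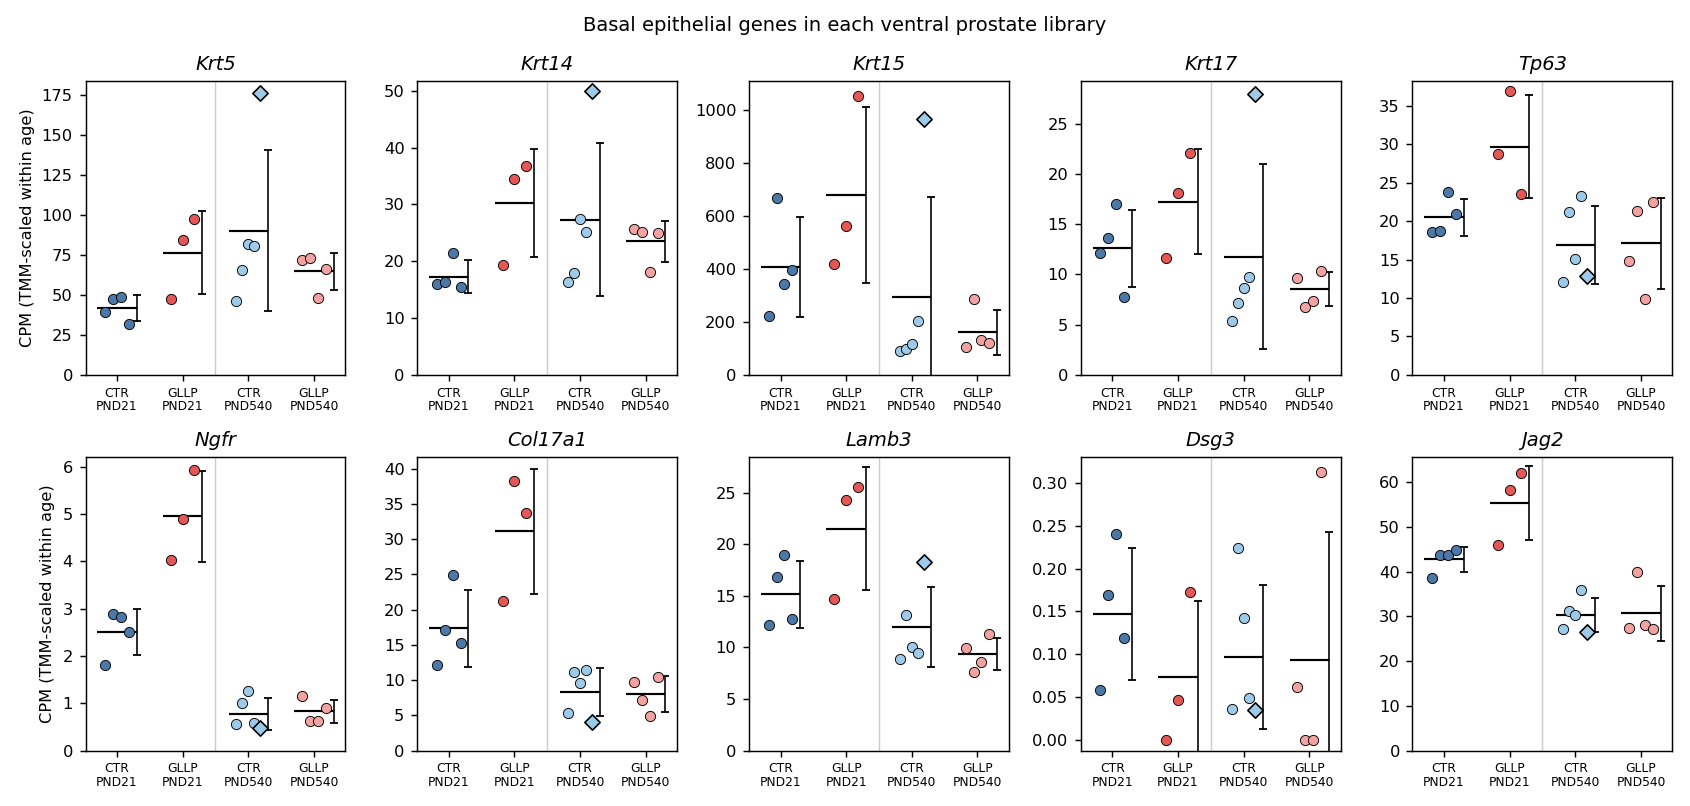
Level of each of the 10 basal genes in each library, in TMM-scaled CPM (vertical axis, linear, computed within each age) for CTR and GLLP at PND21 and PND540; points are libraries, bars are group means, and whiskers show 1 SD, cut at the lower edge of the panel for Krt15 and Dsg3. The diamond is CTR replicate 5 at PND540, which is the highest PND540 library for Krt5, Krt14, Krt15, Krt17 and Lamb3. At PND21 the Ngfr and Jag2 groups do not overlap.

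The GLLP glands at PND21 were not alike. Replicate 2 lay above the CTR range for 3 of the 9 genes (Tp63, Ngfr and Jag2), where 24.1% of all genes did so. Replicates 3 and 4 each lay above it for 8 of 9, where 30.9% and 33.6% of all genes did so. Without replicate 2, 6 genes were called higher (Krt5, Krt14, Ngfr, Col17a1, Lamb3 and Jag2, edgeR adjusted p from 0.00778 to 0.0441), while all genes called went from 166 to 1509 (9.96% of those tested). The count of basal genes called also depended on the tool: DESeq2 called 5 (Krt5, Krt14, Tp63, Ngfr and Col17a1) among 972 genes (6.52%), and limma voom with sample weights called 7 (all but Krt15 and Krt17) among 3490 genes (23.4%). With library size alone as the scaling, Krt14 and Ngfr were called, but the median log2 difference over all genes then shifted by 0.14.

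Other genes of the same structures and pathways were read from lists drawn up for this purpose. None of 7 tested hemidesmosome and anchoring genes was called at PND21, and Itga3, an integrin alpha chain that binds laminin, had the smallest p (log2 difference 0.41, edgeR adjusted p = 0.149). None of 8 desmosome and p63-dependent genes was called. Dsc3, a desmosomal cadherin of basal layers, was at 1.21, 1.7, 2.76 and 1.79 CPM in the CTR glands and at 4.12, 4.01 and 3.72 CPM in the GLLP glands. These groups did not overlap, and the log2 difference was 1.08 (SE 0.26, edgeR adjusted p = 0.0893). Of 15 Notch pathway genes 12 had positive differences and 0 were called, with the smallest p for the target gene Hes1 (log2 difference 0.54, edgeR adjusted p = 0.107). None of 5 tested neurotrophin and receptor genes was called, with the smallest p for the receptor Ntrk2 (log2 difference 0.82, edgeR adjusted p = 0.153). The luminal keratin Krt8 differed by -0.33 on the log2 scale (edgeR adjusted p = 0.197), and 0 of 8 luminal markers were called.

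Markers of other cells differed between the same PND21 libraries. All 8 skeletal muscle markers were called higher in GLLP and summed to between 303 and 537 CPM there against 5.08 to 8.86 CPM in CTR, with the highest sum in GLLP replicate 2. The 7 urothelial markers summed to 9.35 to 11.4 CPM in CTR and to 11.5, 11.5 and 33.3 CPM in GLLP replicates 2 to 4. The 7 markers of stratified squamous epithelium, which also carries Krt5 and Krt14, summed to 9.67 to 12.7 CPM in CTR and to 16.4, 13.1 and 31.5 CPM in GLLP, with Sprr1b at 0 in every library of that age. Neither of these last lists had a called gene at PND21, Upk1b (log2 difference 2.37, edgeR adjusted p = 0.0895) and Krt4 (log2 difference 3.38, edgeR adjusted p = 0.12) having the smallest p of each. Schwann cell markers, relevant because such cells also carry Ngfr, summed to 65.8 to 70.3 CPM in CTR and to 61.1 to 72.5 CPM in GLLP, with 0 of 8 called. Endothelial markers summed to 134 to 151 CPM in CTR and 161 to 178 CPM in GLLP (Plvap, log2 difference 0.55, edgeR adjusted p = 0.0861), and smooth muscle markers to 3070 to 3590 CPM in CTR and 3350 to 3910 CPM in GLLP (Des, log2 difference 0.31, edgeR adjusted p = 0.203). Fibroblast markers summed to 3560 to 5270 CPM in CTR and 5100 to 6430 CPM in GLLP (Pdgfra, log2 difference 0.53, edgeR adjusted p = 0.0905), and 0 genes of these 3 lists were called. The part of these cells in the basal gene values was not tested.

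At PND540 no difference between the diets was found for the basal genes. In the edgeR test 0 of 9 genes were called and 0 of 9 had an unadjusted p under 0.05, beside 0% of all 14767 genes called and 0.833% with an unadjusted p under 0.05. DESeq2 called 0 basal genes and 2 genes in all, and limma voom 0 and 0. The groups overlapped for every basal gene, where 0.183% of all genes had GLLP wholly above and 0.21% wholly below CTR, and adjusted p-values ran from 0.914 to 0.99. This comparison was less precise than that at PND21, with a biological coefficient of variation of 46.2% against 19.6%.

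The PND540 keratin values turned on 1 gland. Krt5 was at 45.9, 65.5, 81.5, 80.9 and 176 CPM in CTR replicates 1 to 5 and at 71.9, 73.1, 47.8 and 66.5 CPM in GLLP replicates 1 to 4 (log2 difference -0.47, SE 0.36). Krt15 was at 89.5, 97.8, 116, 203 and 966 CPM in the CTR glands and at 104, 288, 132 and 121 CPM in the GLLP glands (log2 difference -0.87, SE 0.74). CTR replicate 5 was the highest for both genes, at 2.55 times the median of the other 8 libraries for Krt5 and 8.15 times for Krt15. Krt14 was at 16.3, 17.9, 27.5, 25.1 and 49.9 CPM in the CTR glands and at 25.6, 25.1, 18.1 and 25.1 CPM in the GLLP glands, and Krt17 at 5.37, 7.1, 8.6, 9.78 and 28 CPM in the CTR glands and at 9.59, 6.79, 7.37 and 10.3 CPM in the GLLP glands. Without CTR replicate 5 the fitted log2 differences of Krt14, Krt15 and Krt17 changed from -0.22, -0.87 and -0.47 to 0.11, 0.35 and 0.14, and that of Krt5 to -0.08, each with an edgeR adjusted p of 1. For 3 of the 4 keratins the sign of the PND540 value thus turned without this library.

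Of the other basal genes, Lamb3 was also highest in that gland, and Tp63, Col17a1, Ngfr and Jag2 were not. Tp63 was at 12, 21.3, 15.1, 23.2 and 12.9 CPM in the CTR glands and at 14.8, 21.4, 9.83 and 22.5 CPM in the GLLP glands (log2 difference 0.02, SE 0.31). Col17a1 was at 5.33, 11.2, 9.54, 11.4 and 3.99 CPM in the CTR glands and at 9.69, 7.12, 4.93 and 10.4 CPM in the GLLP glands (log2 difference -0.05, SE 0.38). CTR replicate 5 had the lowest Col17a1 of all 9 glands and a Tp63 value within the range of the others. Lamb3 was at 8.91, 13.1, 10.1, 9.44 and 18.2 CPM in the CTR glands and at 9.94, 7.66, 8.6 and 11.3 CPM in the GLLP glands (log2 difference -0.35, SE 0.28). Ngfr was at 0.572, 1.01, 1.26, 0.585 and 0.481 CPM in the CTR glands and at 1.15, 0.628, 0.632 and 0.908 CPM in the GLLP glands (log2 difference 0.08, SE 0.43). Jag2 was at 27.1, 31.2, 30.3, 35.9 and 26.4 CPM in the CTR glands and at 27.4, 39.9, 28.1 and 27.2 CPM in the GLLP glands (log2 difference 0.02, SE 0.20). In all, CTR replicate 5 lay above the other 8 glands for 5 of the 9 genes (Krt5, Krt14, Krt15, Krt17 and Lamb3) and below them for 3 (Ngfr, Col17a1 and Jag2), where 34.3% of all genes lay above and 36.4% below. Its luminal markers summed to 6670 CPM, the highest of the 9 glands. None of the related genes was called for diet at PND540 either: 0 of 9 hemidesmosome, 0 of 8 desmosome, 0 of 15 Notch and 0 of 6 neurotrophin genes, with the smallest p in each list for Cd151, Sfn, Hes1 and Bdnf (edgeR adjusted p = 0.914 for each), and no gene of the marker lists for other cells. Dsg3 was at 0.0358, 0.224, 0.143, 0.0488 and 0.0344 CPM in the CTR glands and at 0.0621, 0, 0 and 0.312 CPM in the GLLP glands.

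**Figure D2:**
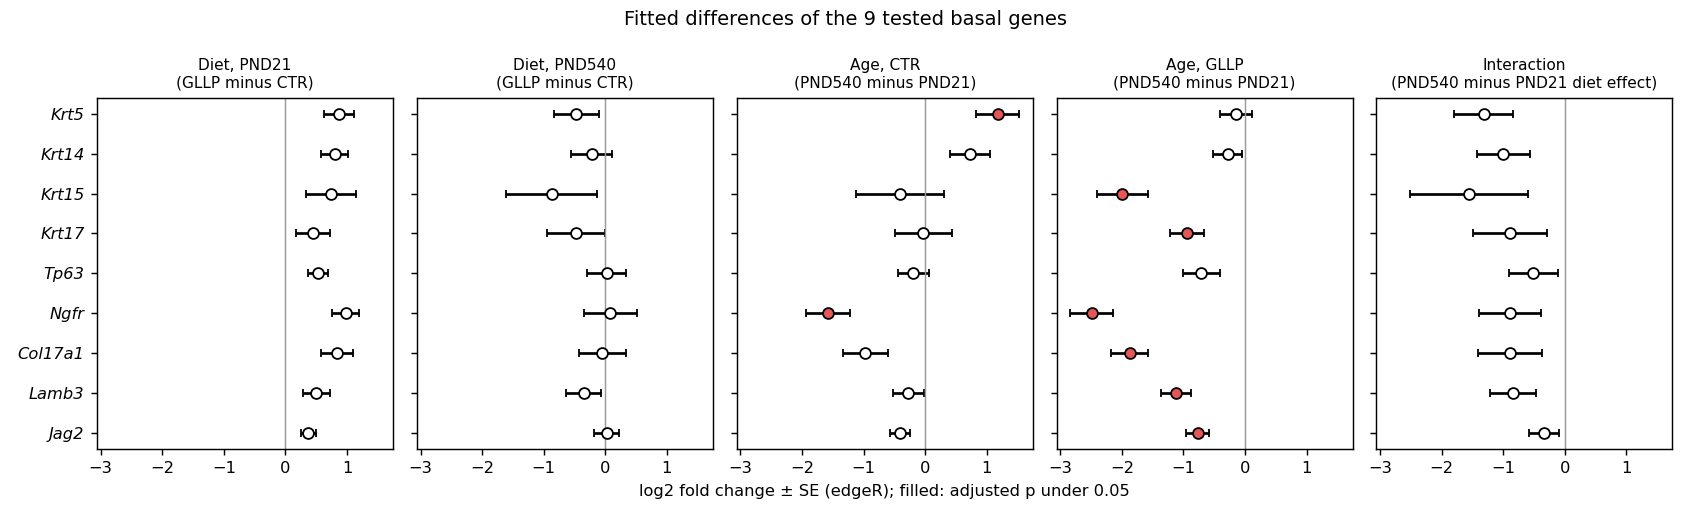
Fitted log2 differences (horizontal axis, points) with standard errors (bars) of the 9 tested basal genes in the diet comparison at PND21 and at PND540, the age comparison in CTR and in GLLP, and the diet by age interaction; filled points have an edgeR adjusted p under 0.05. Filled points are Krt5 and Ngfr in CTR and Krt15, Krt17, Ngfr, Col17a1, Lamb3 and Jag2 in GLLP.

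Between PND21 and PND540 the receptor Ngfr fell in both diets, while Krt5 was called higher with age in CTR and 6 basal genes were called lower with age in GLLP. The tables of the ages do not hold the same set of genes, and age values therefore also include whatever differed in how reads were counted. The hemidesmosome tetraspanin Cd151, for example, had 0 or 1 counts in each PND21 library and 16 to 109 in each PND540 library, and the part of the annotation in this was not tested. The CPM values given for single genes in the age comparisons below were scaled over all 16 libraries together. Each age comparison uses the PND21 libraries of its diet that also enter the PND21 diet comparison.

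In CTR, Ngfr was at 2.02, 3.21, 3.15 and 2.79 CPM at PND21 and at 0.67, 1.21, 1.5, 0.702 and 0.547 CPM at PND540. The ages did not overlap, and the level was 3-fold lower at PND540 (log2 difference -1.58, SE 0.36, edgeR adjusted p = 0.00813). Ngfr was 1 of 9 basal genes called lower in CTR, beside 13.2% of all 13510 genes (30.5% in either direction), and groups that did not overlap in this direction made up 19% of all genes. Krt5 was at 43.6, 52.9, 54.4 and 35.5 CPM at PND21 and at 53.8, 78.5, 97.2, 97 and 201 CPM at PND540. It was 2.26-fold higher at PND540 (log2 difference 1.18, SE 0.35, edgeR adjusted p = 0.03), the only basal gene called higher beside 17.3% of all genes, and the lowest PND540 gland overlapped the highest of PND21. This call was lost when any 1 of the 4 PND21 glands or CTR replicate 4 at PND540 was left out (edgeR adjusted p from 0.0515 to 0.0913), whereas the Ngfr call held in each of the 9 fits that left out 1 gland.

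Among the genes not called in CTR, Col17a1 differed by -0.97 (SE 0.37, edgeR adjusted p = 0.0722), Jag2 by -0.41 (SE 0.16, edgeR adjusted p = 0.0728) and Krt14 by 0.73 (SE 0.32, edgeR adjusted p = 0.109) on the log2 scale. Krt15, Krt17, Tp63 and Lamb3 had log2 differences between -0.41 and -0.03. Krt15 was at 247, 742, 380 and 441 CPM at PND21 and at 105, 117, 138, 243 and 1099 CPM at PND540, so that 4 PND540 glands were below the lowest PND21 gland and CTR replicate 5 was above them all. Without CTR replicate 5, 5 of 9 basal genes were called, beside 49% of all genes in the same fit: Krt5 higher (log2 difference 0.81, edgeR adjusted p = 0.00921), and Krt15 (-1.59, 0.00535), Ngfr (-1.45, 0.00554), Jag2 (-0.36, 0.0204) and Col17a1 (-0.79, 0.0445) lower. With all 9 libraries DESeq2 called 4 of 9 basal genes (Krt5, Ngfr, Col17a1 and Jag2) beside 37.5% of all genes, and limma voom 5 of 9 (Krt5, Krt14, Krt15, Ngfr and Jag2) beside 55.2%. These shares of the basal genes were near those of all genes.

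In GLLP, 6 of 9 basal genes were called lower at PND540 and none higher, beside 17.1% of all 13694 genes called lower, 19.1% called higher and 36.2% in either direction. For each of the 6 every PND540 gland was below every PND21 gland, as for 21.9% of all genes. Ngfr was at 4.48, 5.45 and 6.57 CPM at PND21 and at 1.36, 0.751, 0.739 and 1.08 CPM at PND540, 5.62-fold lower (log2 difference -2.49, SE 0.35, edgeR adjusted p = 0.000788). Krt15 was at 467, 626 and 1165 CPM at PND21 and at 123, 344, 154 and 145 CPM at PND540, 3.98-fold lower (log2 difference -1.99, SE 0.42, edgeR adjusted p = 0.006). Col17a1 was at 23.7, 42.6 and 37.3 CPM at PND21 and at 11.4, 8.51, 5.76 and 12.4 CPM at PND540, 3.65-fold lower (log2 difference -1.87, SE 0.30, edgeR adjusted p = 0.00154). The receptor, a keratin and a basement membrane anchor thus showed the largest age differences of the 9 genes in GLLP. Lamb3 was 2.17-fold lower (edgeR adjusted p = 0.00702), Krt17 1.92-fold (edgeR adjusted p = 0.0244) and Jag2 1.71-fold (edgeR adjusted p = 0.011). The Krt17 call was lost without GLLP replicate 3 or 4 at PND21 or replicate 2 or 3 at PND540 (edgeR adjusted p from 0.051 to 0.105), and the other 5 calls held without any 1 gland. Krt5 (log2 difference -0.15, SE 0.26), Krt14 (-0.28, SE 0.24) and Tp63 (-0.71, SE 0.30) were not called, with edgeR adjusted p-values of 0.679, 0.407 and 0.0962. Limma voom called Tp63 lower as well (log2 difference -1.03, adjusted p = 0.00373), 7 of 9 basal genes beside 52.6% of all genes.

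Related genes also differed with age. Of 8 tested hemidesmosome and anchoring genes, the integrin chains Itgb1 (log2 difference -0.91 in CTR and -0.95 in GLLP) and Itga6 (-1.13 and -0.74) were called lower in both diets, and Cd151 was called higher in both. Of 8 desmosome and p63-dependent genes, 2 were called higher in CTR (Sfn, 3.16, which was 1.79 without CTR replicate 5 at PND540, and Jup, 0.58) and 3 in GLLP (Jup, 0.59, Dsp, 0.53, and Sfn, 1.56), and Dsc3 fell in GLLP (-3.13). Of 15 Notch pathway genes, 1 was called higher and 2 lower in CTR, and 2 higher and 4 lower in GLLP. The receptor Notch4 (-1.25 in CTR and -1.72 in GLLP) and the target Heyl (-1.71 and -2.14) were called lower in both diets, with Nrarp higher in CTR (1.04) and Rbpj higher (0.74) and Notch3 lower (-1.18) in GLLP. Of 6 tested neurotrophins and receptors, Bdnf was called higher and Ntrk2 and Ntrk3 lower in both diets (Ntrk2 by -2.98 and -2.88, Ntrk3 by -1.86 and -1.98). Bdnf (6.43 and 4.77) had 0 to 4 counts per library at PND21 and 20 to 604 at PND540, with the highest in CTR replicate 4, without which its CTR value was 5.40. The CTR value of Ntrk2 was -3.89 without CTR replicate 2 at PND540. Several of these calls did not hold when 1 library was left out: Itga6, Sfn, Jup, Notch4 and Nrarp in CTR, and Itga6, Sfn, Jup, Dsp and Notch3 in GLLP, each missed the threshold in at least 2 such fits, with edgeR adjusted p up to 0.128 in CTR and 0.131 in GLLP.

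The tissue around the basal cells differed with age as well. Krt8 and Krt19 of the 8 luminal markers were called higher at PND540 in both diets (Krt8 by 1 in CTR and 0.91 in GLLP on the log2 scale, Krt19 by 2.21 in GLLP), with Krt18 also higher in CTR (1.26) and Cdh1 in GLLP (0.77). Fibroblast markers, in CPM scaled within each age, summed to 3560 to 6430 at PND21 and to 55.8 to 491 at PND540. Of these markers 3 of 5 were called lower in CTR and 4 of 5 in GLLP. Of the smooth muscle markers 5 of 6 were called lower in each diet, led by Acta2 (-2.23 and -2.21), and of the endothelial markers 4 of 7 in CTR and 5 of 7 in GLLP (Kdr by -1.68 and -1.77). All 8 skeletal muscle markers were called lower in GLLP, whose PND21 glands had the high sums, and 1 of 5 tested was called higher in CTR (Mylpf, log2 difference 1.09). Urothelial markers were called higher in CTR for 3 of 5 (Upk2, Upk1b and Psca) and in GLLP for none of 6, and the squamous marker Krt4 was called higher in CTR (2.48). Of 8 Schwann cell markers, Sox10 was called lower in both diets (-2.19 and -2.24), and in GLLP Gfra3 was called lower (-2.53) and S100b higher (2.36). The calls of Krt8, Krt18, Mylpf and Psca in CTR and of Cdh1, Gfra3 and Sox10 in GLLP were lost in at least 1 fit that left out a library. Without GLLP replicate 4 at PND540 the GLLP value of Sox10 was -3.27. The part of these cells in the age differences of the basal genes was not tested.

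Whether the diet difference changed with age was tested directly as an interaction over all 16 libraries. It was negative for each of the 9 basal genes, from -0.34 for Jag2 to -1.56 for Krt15 on the log2 scale, meaning a GLLP to CTR ratio lower at PND540 than at PND21, while 48% of all genes had positive values. None was called (edgeR adjusted p = 0.738 for each), beside 0.0917% of all 14178 genes. Before adjustment Krt5 (-1.32, SE 0.48), Krt14 (-1, SE 0.43) and Lamb3 (-0.84, SE 0.37) had p under 0.05, that is 3 of 9 beside 3.82% of all genes. The different numbers of age calls in CTR and GLLP are therefore not shown to be a difference between the diets. Without CTR replicate 5 at PND540 the Krt15 value became -0.40 and that of Krt5 -0.97, and again no basal gene was called. No gene of the hemidesmosome, desmosome, Notch or neurotrophin lists was called for the interaction, and among the marker lists for other cells the calls were 6 of 8 skeletal muscle genes, all lower, led by Mylpf (-4.71, edgeR adjusted p = 8.21e-05). The PND21 libraries enter both the interaction and the PND21 diet comparison, so these values are not separate evidence.

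The basal keratins were also set against the luminal keratins of the same library, so that both parts of the ratio come from epithelium. Krt5 and Krt14 together came to 5.69%, 6.85%, 9.05% and 6.4% of Krt8 and Krt18 in the CTR glands at PND21 and to 9.63%, 15.4% and 16.4% in the GLLP glands. All 3 GLLP values were above the CTR values (with Krt15 and Krt17 added they overlapped, GLLP replicate 2 at 71.8% lying below CTR replicate 2 at 79.8%), with means of 7% ± 1.45 (SD, n = 4) and 13.8% ± 3.65 (SD, n = 3). At PND540 the ratio was 4.57%, 8.26%, 8.2%, 6.78% and 6.59% in CTR and 6.43%, 6.78%, 5.99% and 9.72% in GLLP, with overlapping groups and means of 6.88% ± 1.51 (SD, n = 5) and 7.23% ± 1.69 (SD, n = 4). CTR replicate 5, high for Krt5 and Krt14, lay within the range of its group on this ratio, at 6.59%. Its Krt8 (1959 CPM) and Krt18 (1478 CPM) were also the highest of the PND540 glands. No test is given, because the ratio is built from the genes under study and from Krt8, whose PND21 groups did not overlap.

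The balance among the basal keratins differed between the ages. Krt15 counts ran from 565% to 1400% of Krt5 counts in CTR and from 669% to 1080% in GLLP at PND21. At PND540 they ran from 142% to 547% in CTR and from 145% to 394% in GLLP, so every PND540 gland was below every PND21 gland, the closest being CTR replicate 5 at PND540 and CTR replicate 1 at PND21. Krt14 stayed between 27.3% and 48.5% of Krt5 in all 16 libraries. These ratios are of counts not corrected for gene length, so their level says nothing of how many transcripts of each gene there were.

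**Figure D3:**
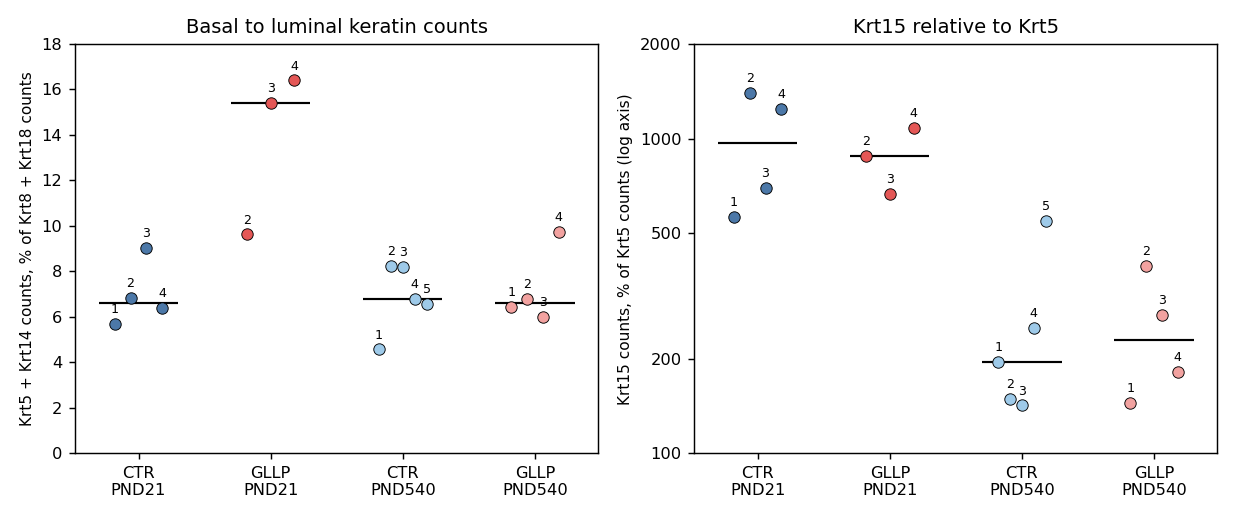
Left, Krt5 and Krt14 counts as a percentage of Krt8 and Krt18 counts in each library (linear axis from 0); right, Krt15 counts as a percentage of Krt5 counts (log axis). Points are libraries labelled with their replicate number and bars are group medians. The 3 GLLP glands at PND21, from 9.63% to 16.4%, lie above the CTR glands of that age on the left, and all PND540 glands lie below all PND21 glands on the right.

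The 9 genes varied together across the PND21 libraries. The median Pearson r of log2 CPM over the 36 gene pairs was 0.83, from 0.23 for Krt15 with Tp63 to 0.97 for Krt5 with Krt14, over 7 libraries of which 3 were GLLP. Across the 9 PND540 libraries the median was 0.01, and the genes fell into separate sets. Keratins with each other had r from 0.81 to 0.96, and keratins with Tp63, Col17a1, Jag2 or Ngfr had r from -0.62 to 0.12. Without CTR replicate 5 the median over all pairs at PND540 was 0.45 and the medians of these blocks were 0.56 and 0.47, so the separation rested on that gland. Krt5 with Krt14 stayed high at 0.96 with it and 0.87 without it. These correlations are descriptions over few libraries that share group, depth and scaling.

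**Figure D4:**
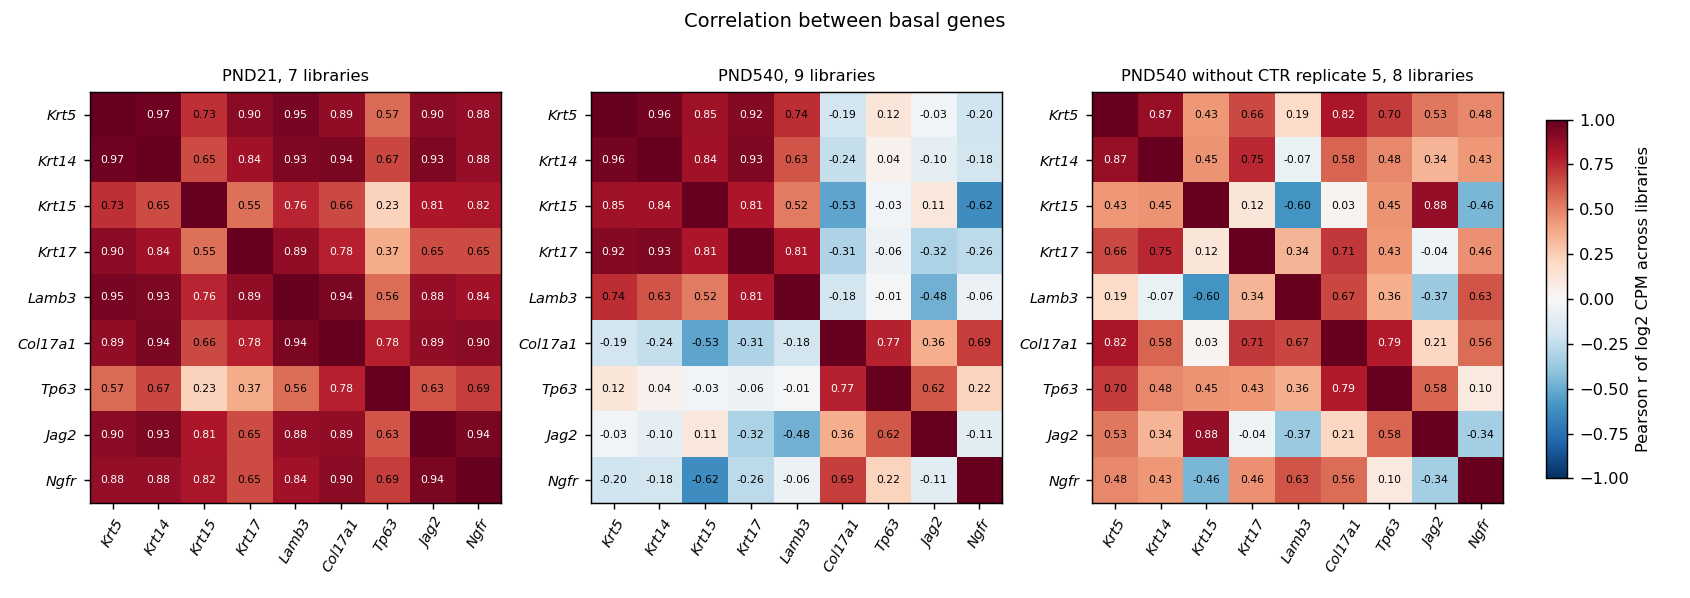
Pearson r of log2 CPM between each pair of the 9 tested basal genes (rows and columns, colour scale from -1 to 1) across 7 PND21 libraries, 9 PND540 libraries, and 8 PND540 libraries without CTR replicate 5. The median r is 0.83, 0.01 and 0.45 in turn, and the values between keratins and Tp63, Col17a1, Jag2 or Ngfr, mostly negative in the middle panel, are mostly positive in the right one.

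Genes whose pattern was most like the mean of the 9 basal genes were ranked over 12671 other genes by the smaller of their correlations across the 7 PND21 and the 9 PND540 libraries. The first 8 were Scarf2 (0.93), Npr1 (0.92), Usp11 (0.91), Patz1 (0.9), Plekhh3 (0.9), Ephb4 (0.89), Trip10 (0.89) and Paqr4 (0.89). Without CTR replicate 5 their PND540 correlations were between 0.86 and 0.94. They were picked for this likeness, so the values are a description.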

How the data were processed

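Messenger RNA counts of 16 ventral prostate libraries were analysed, grouped by the labels' age and treatment, with replicate numbers from the titles. The deposited values are raw counts, with a table for each age and no normalization by the authors. Per the submitters' processing notes, STAR, edgeR 3.34.0 and Rnor_6.0 were used, in roles the notes do not state. How reads were counted, with which annotation and strand setting, is not given in the sources used here. All 10 basal genes and the other lists were chosen with earlier results of these data known.

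Each comparison was fitted over all genes in edgeR 4.0.16 (R 4.3.3) with filterByExpr on the groups, TMM, and robust quasi-likelihood fits and tests; p-values were adjusted by Benjamini-Hochberg over all genes tested, with a threshold of 0.05. Diet was tested within each age, and age and the interaction over genes named in both tables. SE is the log2 difference divided by the root of its F statistic. The scripts were tested on simulated data. Correlations used log2 CPM with a prior count of 2. Beside the 10 genes, the rule named for each list the called genes, up to 4 with the smallest p, or, where none was called, the gene with the smallest p. Some genes that this rule takes are left out of the text. Alternatives were library size alone, RLE size factors, DESeq2 1.42.0, limma 3.58.1 voom with sample weights, no filter, a filter at 1 CPM, a non-robust fit, a joint fit, a replicate block and leaving out each library. No pair of libraries agreed within sampling noise: chi-square per degree of freedom between replicates was 30.3 or more. Basal gene counts per library, Dsg3 aside, ran from 14 (Ngfr) to 36518 (Krt15). Promoter coordinates are of GRCr8, not the build named for the counts. Figures were drawn with matplotlib 3.10.9.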

Additional observations from a re-analysis of the deposited data

Results flagged for a closer look

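Of 33 groups of values with 4 or 5 libraries, 7 held a library whose gap to its nearest neighbour was large against the range of the group (Dixon's criterion, which chance meets in about 1 group in 20). CTR replicate 5 at PND540 was the far value for Krt5 (176 CPM), Krt15 (966 CPM) and Krt17 (28 CPM). The other 4 were in other libraries: Krt14 in CTR replicate 3 at PND21 (21.5 CPM, high), Krt14 in GLLP replicate 3 at PND540 (18.1 CPM, low), and Krt15 (288 CPM) and Jag2 (39.9 CPM) in GLLP replicate 2 at PND540, both high.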

How the results depend on the processing

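For diet at PND21 the 0 basal genes called became 2 with library size alone, 5 with DESeq2, 7 with voom, and 0 to 6 when 1 library was left out, 6 only without GLLP replicate 2. All genes called went from 166 to 650 with library size alone, 972 with DESeq2, 3490 with voom, 27 with the replicate block, 40 in the joint fit and 62 to 1509 with 1 library left out. No tested basal gene changed direction at PND21 under any alternative run. For diet at PND540, 2 genes in all were called with DESeq2 and 0 otherwise. There voom turned Krt14 (0.11), Krt15 (0.21), Krt17 (0.14), Tp63 (-0.13), Ngfr (-0.08) and Jag2 (-0.06) on the log2 scale. With 1 library left out, Krt14 ran from -0.36 to 0.11, Krt15 from -1.26 to 0.35, Krt17 from -0.65 to 0.14, Tp63 from -0.12 to 0.21, Ngfr from -0.11 to 0.32, Col17a1 from -0.22 to 0.13 and Jag2 from -0.11 to 0.10. For age in CTR the 2 basal genes called became 4 with DESeq2, 5 with voom and 1 to 5 with 1 library left out; Krt17 ran from -0.61 to 0.15, and all genes called went from 4117 to 7460 with voom and 3040 to 6574 with 1 library left out. For age in GLLP, 5 or 6 basal genes were called without any 1 library, Krt5 ran from -0.40 to 0.07, and voom added Tp63. For the interaction, 13 genes in all became 46 with DESeq2, 44 with voom and 7 to 16 with 1 library left out, and 0 basal genes were called throughout.

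Same-numbered libraries did not deviate together in every pair (correlations of deviations from -0.17 to 0.30). What a shared number stands for is not given in the labels. Weak correlations cannot decide whether such libraries had anything else in common. The replicate block leaves libraries without a partner out of the contrast: CTR replicate 1 at PND21 or CTR replicate 5 at PND540 for diet, and CTR replicate 5 or GLLP replicate 1 at PND540 for age. It called 0 basal genes for diet at either age, 5 of 9 for age in CTR (44.5% of all genes) and 5 of 9 for age in GLLP (27.9% of all genes), where Jag2 had an edgeR adjusted p of 0.0584. With it the PND540 diet values became 0.14 for Krt14, 0.30 for Krt15, 0.15 for Krt17, -0.09 for Tp63, -0.01 for Ngfr and -0.03 for Jag2.

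With all 4 basal keratins over Krt8 and Krt18 the group means of the ratio were 56.4% and 104% (CTR and GLLP) at PND21 and 20.7% and 20.8% at PND540, and the PND21 groups overlapped. With Krt5 over Krt8 alone the means were 7.55% and 17% at PND21 and 8.45% and 8.38% at PND540, so the order of the PND540 means turned. With 1 library left out the ratio ran from 6.31% to 7.43% in CTR and 12.5% to 15.9% in GLLP at PND21, and from 6.54% to 7.46% and 6.40% to 7.64% at PND540. Where not stated otherwise, the cause of a change was not tested. Depth limits Dsg3: without the filter its log2 differences were -0.96 and -0.05 for diet at PND21 and PND540 (edgeR adjusted p = 0.622 and 0.992).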
